A study of Mus musculus with 4 samples.

Results

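Neuropeptides and granins were followed through 10 of the 31053 genes in the count matrices, taken by their symbols. They comprised 5 peptide precursors (Penk, Npy, Sst, Tac1 and Cck), 3 granins (Chga, Chgb and Scg2), the convertase inhibitor Pcsk1n and the convertase Pcsk2. The mice were 4 males of the C57BL/6J strain, taken at postnatal day 90. Each whole brain was dissociated enzymatically and gave 1 library of single cells captured in droplets (10x Genomics, 3′ version 2 kit). In 2 animals no inhibitors were used. In the other 2, actinomycin D and triptolide, which block transcription, were present from perfusion on, and anisomycin, which blocks translation, was added for dissection and digestion. All 4 libraries carried the same batch label. The comparison between the groups asked how the readout of each gene differed when the cells' own response to dissociation was blocked. The set was chosen by measured values of these same samples, namely the differences between the 2 groups of Penk in neuron-like cells and of Pcsk2 in choroid plexus-like cells. Values in those 2 classes, and over all cells together, are therefore given as descriptions with no test.

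Neuropeptides are cut from larger precursor proteins inside dense-core vesicles and are released to act on receptors of neighbouring cells. Granins are acidic proteins that help to form those vesicles and are themselves cleaved into peptides, the convertase encoded by Pcsk2 makes the cuts, and proSAAS, the product of Pcsk1n, inhibits the related convertase PC1/3. In the brain each peptide marks particular neurons, such as enkephalin in striatal neurons of the indirect pathway, while granins are shared by many neurons and endocrine cells.

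Several of these genes are textbook targets of cyclic AMP signalling, which acts through the cyclic AMP response element (CRE), and their promoters were read for it. RefSeq promoters on GRCm38.p6, from 250 bases before to 50 after the start site, were found for 9 of the 10 genes; Penk had none. The full element, TGACGTCA on either strand, was present in 3 of these 9 (Sst, Chgb and Scg2), and in 1.79% of all 32851 promoters. The half-site TGACG, on either strand, was present in 7 of the 9 (Sst, Tac1, Cck, Chga, Chgb, Scg2 and Pcsk2) and in 20.8% of all promoters, and for Sst, Chgb and Scg2 it lay within the full element. The 3 full elements are printed here, with that of Chga as an example of a half-site. The first base of the motif lay 48 bases before the start site in Sst, 68 in Scg2, 72 in Chgb and 44 in Chga, and the half-sites nearest to it in the promoters not shown lay 47 bases before it in Cck, 43 in Tac1 and 34 in Pcsk2. Each is written 5′ to 3′ on the strand of the gene, with the motif in capitals.
Sst, full element, chr16:23890874-23890903, minus strand: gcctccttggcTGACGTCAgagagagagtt
Scg2, full element, chr1:79440076-79440105, minus strand: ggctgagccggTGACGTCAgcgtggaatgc
Chgb, full element, chr2:132781559-132781588, plus strand: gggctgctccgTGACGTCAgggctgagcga
Chga, half-site, chr12:102554886-102554912, plus strand: gggcggtcctaTGACGtaatttcctgg
In the GENCODE annotation the motifs of Sst, Scg2 and Chgb fell in an exon annotated as untranslated region of the gene, which starts further upstream there than in RefSeq, and that of Chga fell in no annotated feature. An AP-1 site, TGACTCA on either strand, was found in Pcsk1n alone of the 9 and in 5.20% of all promoters. The letters TATAAA, on the sense strand, were found in Chga alone, where they began 5 bases after the RefSeq start site, and in 8.32% of all promoters.

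From 12487 deposited barcodes, 9811 cells were kept, 2196 and 2738 of them from the animals without inhibitors and 2081 and 2796 from those with inhibitors. Library totals ran from 5134359 to 7529804 unique molecular identifiers (UMIs), each of which stands for 1 captured RNA molecule. Clustering without the 10 genes gave 29 clusters and 14 classes named from other markers, 9 of which held at least 20 cells in every animal. Neuron-like cells numbered 318 (98 and 75 without inhibitors, 69 and 76 with them), fewer than microglia-like (3099), astrocyte-like (1883) or endothelial-like cells (1698), and they held 2.73% of all UMIs. All 17 neuron markers were detected in them, with a summed level of 21209 and 26871 CPM (UMIs of a gene per 1000000 UMIs of the class) without inhibitors and 21508 and 21690 with them. Olfactory ensheathing-like cells came from the libraries numbered 1 of both groups, with 29 and 31 cells, and none came from those numbered 2. Of the kept cells, 45 shared a barcode sequence with a cell of another library.

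Neuron-like cells carried most of the signal of 6 genes. They held 81.7% of all UMIs of Chga, 77.2% of Scg2, 74.4% of Chgb, 57.6% of Cck, 53.8% of Tac1 and 52.1% of Pcsk2. By contrast they held 34.3% of Penk, 12.2% of Pcsk1n, 8.5% of Sst and 6.7% of Npy. These shares include a single Cga-positive cell, described below. It held 64 of the 107 neuron-like UMIs of Chga, 82 of the 279 of Chgb and 41 of the 207 of Scg2. The lowest neuron-like value of the 4 animals lay above every value of the other 13 classes for Tac1, Cck, Chgb, Scg2 and Pcsk2. For Penk this held against all but fibroblast-like cells, for Chga against all but neural progenitor-like cells, and for Pcsk1n against all but oligodendrocyte-like and oligodendrocyte precursor-like cells. A count of 0 allowed up to 73.9 CPM in oligodendrocyte precursor-like, 82.6 in erythrocyte-like and 84.2 in neural progenitor-like cells. The lowest neuron-like values of Tac1, Chga and Cck, 26.3, 55.8 and 65.1 CPM, lay below these limits. That of Penk, 78.9 CPM, lay below the limits of erythrocyte-like and neural progenitor-like cells. The order of these genes against such small classes was therefore not resolved. Classes are clusters of the same cells, so these orders are a description.

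**Figure D1:**
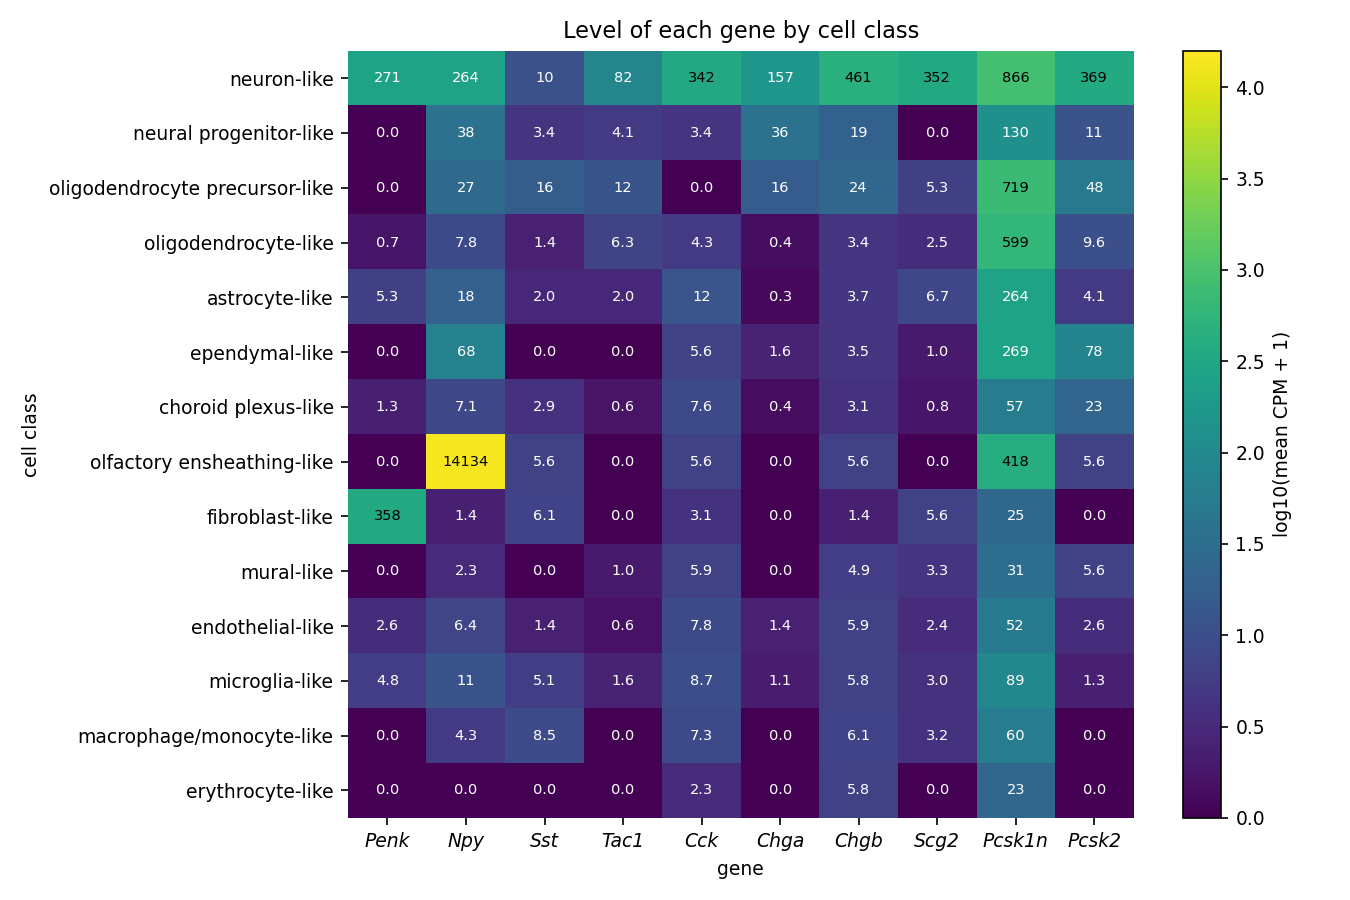
Mean level of each gene (columns) in the 14 named classes (rows), averaged over the animals that had cells of the class (4, or 2 for olfactory ensheathing-like cells). The color scale is log10(mean CPM + 1) and the number in each cell is the mean CPM. Most columns are brightest in neuron-like cells, Npy is brightest in olfactory ensheathing-like cells at 14134, Penk is bright in fibroblast-like and neuron-like cells, and Pcsk1n is spread over glial classes.

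Few UMIs of these genes were found per neuron. Of the 318 neuron-like cells, 53 had no UMI of any of the 10 genes, 111 had UMIs of 1 of them, 71 of 2 and 8 of 6, the highest number seen. The share of neuron-like cells with at least 1 UMI was 54.7% for Pcsk1n, 31.8% for Pcsk2, 31.1% for Chgb, 18.6% for Scg2, 14.2% for Cck, 11.3% for Penk, 9.12% for Chga, 5.97% for Npy, 3.77% for Tac1 and 1.57% for Sst. Microglia-like cells, which should lack peptide precursors, gave 1.26% for Cck, 1.23% for Npy, 0.68% for Penk, 0.39% for Sst and 0.23% for Tac1, at a median of 1391 UMIs per cell against 915 in neuron-like cells. With every cell thinned to 500 UMIs, the mean share over the 4 animals was 5.60% in neuron-like against 0.33% in microglia-like cells for Penk, 4.35% against 0.72% for Npy, 4.16% against 0.38% for Cck and 2.53% against 0.19% for Tac1.

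Penk (chromosome 4, 4133531 to 4138819, minus strand) encodes proenkephalin, the precursor of the enkephalins. In neuron-like cells it stood at 312 and 595 CPM in the animals without inhibitors and at 78.9 and 97.1 in those with inhibitors, from 61, 64, 9 and 14 UMIs. Both animals without inhibitors were above both with them, the group means differed 5.15-fold and the fitted log2 fold change (without over with inhibitors, as throughout) was 2.30. This difference led to the choice of Penk and is given with no test. Among all 3140 genes tested in neuron-like cells, 0.0318% were called and the groups did not overlap for 28.1%.

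The 2 clusters of neuron-like cells differed. In the larger, of 195 cells, Penk stood at 350 and 741 CPM without inhibitors and 0 and 124 with them, where the 0 allows up to 38.7. In the other, of 123 cells, it stood at 279 and 0 CPM against 247 and 54, and the groups overlapped; the 0 came from 15 cells and allows up to 141. This second cluster held 52 of 98 and 15 of 75 neuron-like cells without inhibitors and 23 of 69 and 33 of 76 with them. The part of this unequal share in the difference over both clusters was not tested.

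The Penk signal lay in few neurons. It came from 36 cells (16 and 7 without inhibitors, 6 and 7 with them), and the 3 cells with most UMIs held 72.1% and 90.6% of it without inhibitors and 66.7% and 71.4% with them. The highest cells had 30 and 31 UMIs without inhibitors and 3 and 6 with them. Without the 3 highest cells of each animal the level was 91.6 and 60.7 CPM against 27.7 and 31.9, and the groups did not overlap. These values rest on few UMIs, since the cells left out held 44 of 61, 58 of 64, 6 of 9 and 10 of 14. A count of 0 allowed up to 27.9 CPM in the animal with fewest UMIs of neuron-like cells. As this contrast led to the choice of Penk, the trimmed values are a description as well.

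The strongest Penk cells carried markers of more than 1 kind of neuron. At least 5 Penk UMIs were found in 6 cells, 2 and 3 of them without inhibitors and 0 and 1 with them. Of these 6 cells, 6 had a UMI of a striatal projection neuron marker, 5 of a GABAergic marker, 0 of a glutamatergic marker and 5 of an indirect-pathway marker (Drd2, Adora2a or Gpr6), against 3 of 282 neuron-like cells without Penk for the indirect-pathway markers. A striatal projection neuron marker was also found in 100 of the 282 cells without Penk and in 9 of the 10 cells with most Cck, an olfactory bulb interneuron marker was found in 6 of the 6 and in 101 of the 282, and an immature neuron marker in 4 and 45. Neurons with Penk were deeper, at a median of 2367 UMIs against 889 in those without, and 83.3% against 20.6% of them had a GABAergic marker.

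Some marker lists of neurons, but not all, separated the inhibitor groups. Cells with an indirect-pathway marker numbered 1 and 8 without inhibitors and 0 and 2 with them, and the summed level of the 3 markers was 25.6 and 242 CPM against 0 and 13.9, with all 3 at 0 in the first animal with inhibitors, which allows up to 26.3 CPM, and Drd2 and Gpr6 at 0 in the second. The 3 GABAergic markers (Gad1, Gad2 and Slc32a1) summed to 1136 and 957 CPM without inhibitors and 588 and 451 with them, and the 4 glutamatergic markers to 502 and 576 against 982 and 708. In these 3 lists the groups did not overlap. Nor did they for the 4 immature neuron markers, at 189 and 177 CPM without inhibitors and 114 and 111 with them. The 3 cerebellar granule markers also separated the groups, at 189 and 112 CPM against 202 and 271. The groups overlapped for the 5 striatal projection neuron markers, at 681 and 1125 CPM against 333 and 729. The same held for the 4 olfactory bulb interneuron markers, at 1111 and 521 against 1096 and 479. The 2 direct-pathway markers overlapped as well, at 66.5 and 18.6 CPM against 0 and 34.7. With the cells that had an indirect-pathway marker left out, Penk was at 162 and 13 CPM without inhibitors and 78.9 and 57.4 with them, the groups overlapped and the log2 fold change was 0.69. Within neurons that had a GABAergic marker, Penk stood at 572 and 1122 CPM against 343 and 241. The part of the neurons recovered in the Penk difference was not tested beyond these values. Erythrocyte markers moved the same way, at 594 and 1050 CPM in neuron-like cells without inhibitors and 175 and 291 with them, and their part was not tested.

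**Figure D2:**
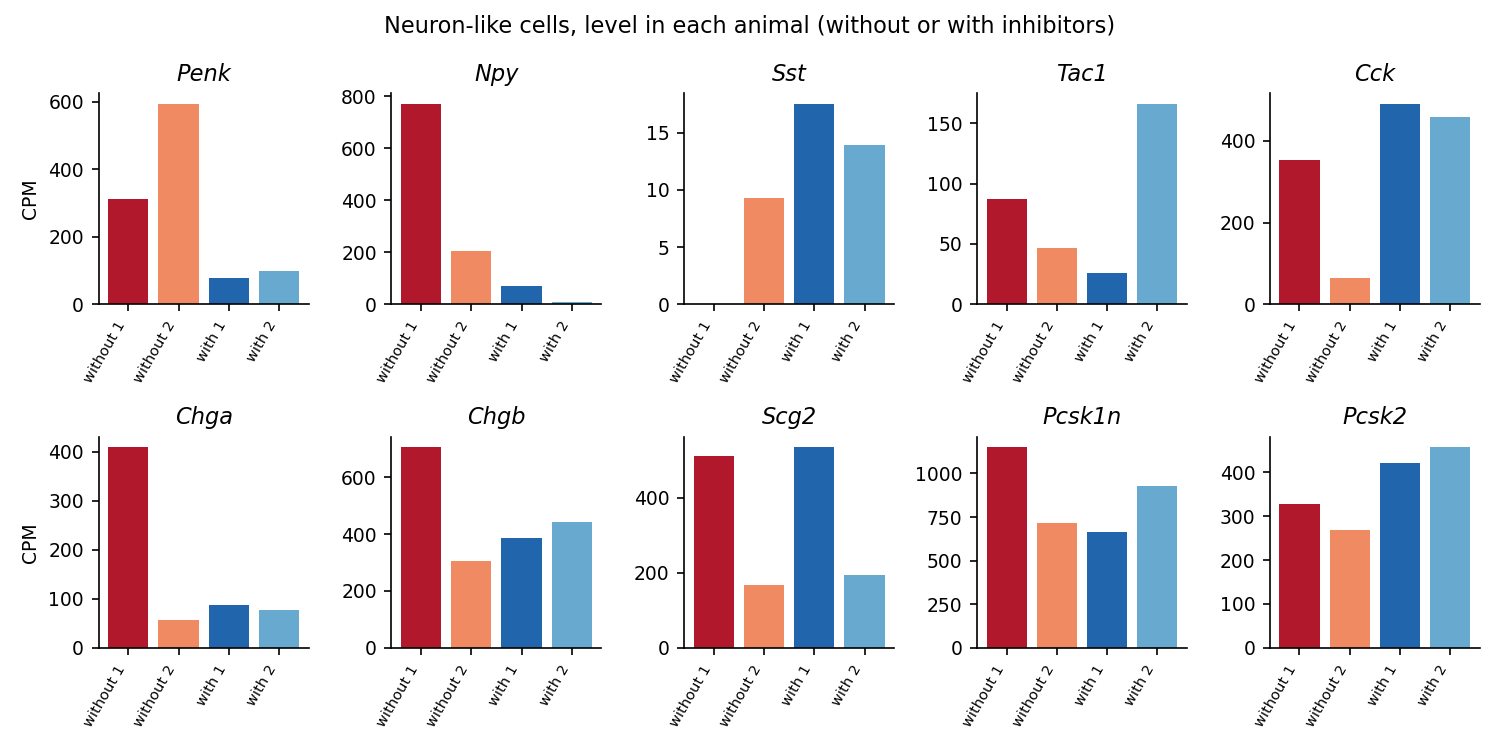
Level (CPM) of the 10 genes in neuron-like cells of each animal, with 1 bar per animal, red shades for the 2 without and blue shades for the 2 with inhibitors; scales differ between panels. Penk and Npy were higher in both animals without inhibitors, Cck and Pcsk2 were lower, and the first animal without inhibitors stands apart for Npy, Chga and Chgb.

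Outside neurons, Penk was found in fibroblast-like cells, which held 53.2% of its UMIs. They gave 281 and 356 CPM without inhibitors and 317 and 476 with them, from 42 of 131 cells. The ranges of the groups overlapped and, unlike in neurons, the higher mean was on the side of the inhibitors. Nearly all of it lay in 1 of the 2 fibroblast-like clusters, with 229 UMIs in 41 of 96 cells (leading genes Slc47a1, Slc26a7 and Nov), against 1 UMI in 35 cells of the other. Neighbouring classes were far lower, at 2.60 ± 0.909 CPM (SD, n = 4) in endothelial-like cells.

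Npy (chromosome 6, 49822710 to 49829507, plus strand) encodes neuropeptide Y, a peptide of cortical and striatal interneurons. Neuron-like cells gave 773 and 204 CPM without inhibitors and 70.2 and 6.94 with them, from 151, 22, 8 and 1 UMIs. The groups did not overlap and the log2 fold change was 3.80, but a single cell with 9374 UMIs held 120 of the 151 UMIs of the highest animal. That animal stood at 167 CPM without this cell, still above both animals with inhibitors. With all cells kept, the higher value of each group lay in the library that held olfactory ensheathing-like cells. The part of free RNA from those cells was not tested. All 5 cells with at least 5 Npy UMIs had a GABAergic marker and 0 had a glutamatergic one. These 5 cells held 162 of the 182 Npy UMIs of neuron-like cells. They were deeper, at a median of 4212 UMIs against 912 in the 299 cells without Npy, 75 of which had a GABAergic marker. All 5 also had an olfactory bulb interneuron marker, which was found in 119 of the 299 neuron-like cells without Npy.

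The largest store of Npy was in olfactory ensheathing-like cells, the glia that wrap olfactory axons, which held 77.8% of all its UMIs. Its level there was 16727 CPM in the animal without inhibitors that had such cells and 11541 in the one with inhibitors. Every one of the 60 cells had Npy, with a median of 20 and a maximum of 161 UMIs per cell. Over all cells of a library Npy therefore stood at 279 and 250 CPM in the 2 libraries numbered 1 and at 23.2 and 20.1 in those numbered 2. With olfactory ensheathing-like cells left out these values became 53.8 and 23.3 against 23.2 and 20.1, and with neuron-like cells left out as well they were 23.2 and 22 against 19.9 and 20.4. Without these classes all 4 libraries thus lay between 19.9 and 23.2 CPM, and the groups overlapped.

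A cluster of 71 cells that could not be named (leading genes Gdf10, Cd70 and Mybpc1, the last a listed ensheathing marker) also had Npy. It had passed 8 astrocyte markers, but none was among its leading genes. Its level was 762 and 1070 CPM without inhibitors and 803 and 1164 with them, in 50 of the 71 cells, and the groups overlapped. Ependymal-like cells, which line the ventricles, followed at 25.9 and 85.6 CPM without inhibitors and 60.4 and 101 with them, also overlapping.

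In astrocyte-like cells Npy was at 14.8 and 8.2 CPM without inhibitors and 25.9 and 24.7 with them, and the log2 fold change was -1.19 ± 0.44 (SE, n = 2 per group). The groups did not overlap, as for 32.8% of the genes tested in that class, and edgeR's quasi-likelihood test gave an adjusted p of 0.914. Its clusters differed, with 16.6 and 10.9 CPM against 22.7 and 48.6 in the largest, of 985 cells. A cluster of 740 cells had the reverse order, at 9.0 and 4.4 against 3.3 and 0, from 6 UMIs. In a cluster of 158 cells the groups overlapped, at 43.3 and 15.1 against 175 and 0. Without the 3 highest cells of each animal the astrocyte-like groups overlapped, at 10.8 and 4.1 CPM against 14.7 and 7.3. Microglia-like cells had 23.7 and 5.7 CPM against 10.1 and 3.4, with the higher value of each group in the library that held olfactory ensheathing-like cells. Their log2 fold change was 1.13 ± 0.55 (SE) and the adjusted p in edgeR 0.778. Single animals decided this value, which was -0.16 without the first animal without inhibitors and 1.87, with an adjusted p of 0.0359 in edgeR, without the second. The part of free RNA from olfactory ensheathing-like cells in these low levels was not tested, and erythrocyte-like cells had 0 Npy UMIs, which allows up to 82.6 CPM in the animal with fewest of their UMIs.

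**Figure D3:**
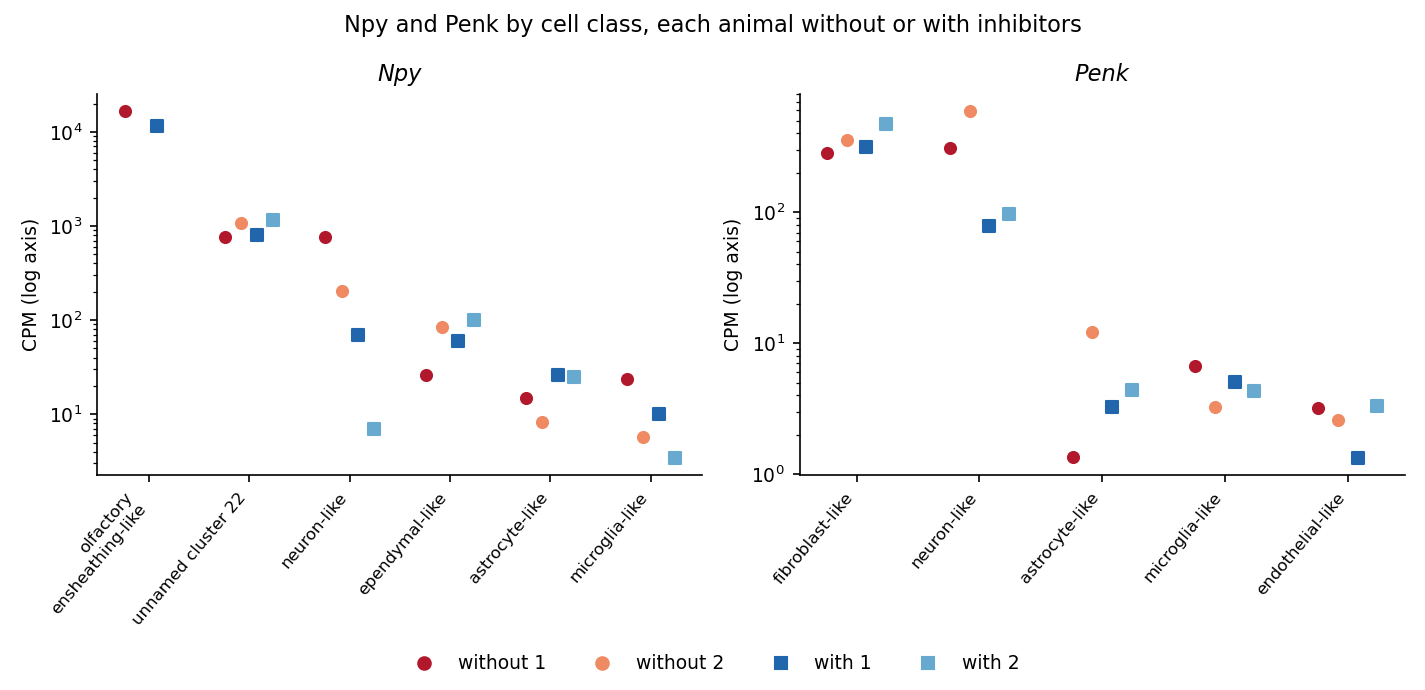
Levels of Npy and Penk (CPM, log axis) by class, with 1 point per animal, circles for animals without and squares for animals with inhibitors; olfactory ensheathing-like cells were found in 2 animals. Npy falls from 16727 and 11541 in olfactory ensheathing-like cells to 3.4 in the lowest microglia-like value, and Penk separates the groups in neuron-like but not in fibroblast-like cells.

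Cck (chromosome 9, 121489824 to 121495694, minus strand), the precursor of cholecystokinin, gave 353 and 65.1 CPM in neuron-like cells without inhibitors and 491 and 458 with them. The groups did not overlap, with the higher values in the animals with inhibitors, and the log2 fold change was -1.07, opposite in sign to that of Penk. The second animal without inhibitors was lowest, with 7 UMIs in 6 cells. Of the 10 cells with at least 5 Cck UMIs, 9 had a glutamatergic and 1 a GABAergic marker, so that the strongest Cck cells stood on the other side of the GABAergic and glutamatergic divide from those of Penk and Npy. These 10 cells held 151 of 198 UMIs, and the glutamatergic marker sum, like Cck, was higher with inhibitors. The 10 cells were also deeper, at a median of 7300 UMIs against 878 in the 273 neuron-like cells without Cck. Of those 273, 91 had a glutamatergic and 81 a GABAergic marker. Outside neurons, Cck was at 12 ± 3.48 CPM (SD, n = 4) in astrocyte-like cells and lower in the other classes.

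Tac1 (chromosome 6, 7554879 to 7565834, plus strand), the precursor of substance P and neurokinin A, stood at 87.0 and 46.5 CPM without inhibitors and 26.3 and 167 with them. These values rest on 17, 5, 3 and 24 UMIs, and the groups overlapped. In the 4 cells with at least 5 UMIs a GABAergic marker was present in 4 and a direct-pathway striatal marker (Drd1 or Isl1) in 3. These cells were deeper, at a median of 2508.5 UMIs against 910 in the 306 neuron-like cells without Tac1. Of those 306, 79 had a GABAergic and 7 a direct-pathway marker. Oligodendrocyte-like cells held 20 Tac1 UMIs, of which 17 came from the second animal with inhibitors, 11 of them in 1 cell and 4 in another.

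Sst (chromosome 16, 23889573 to 23890958, minus strand), the precursor of somatostatin, gave too few UMIs to follow. Neuron-like cells had 0 and 1 UMIs without inhibitors and 2 and 2 with them, at most 17.5 CPM, where a count of 0 in the first animal allowed up to 15.4. It did not pass the filter on low counts in neuron-like cells, whereas the other 9 genes did.

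**Figure D4:**
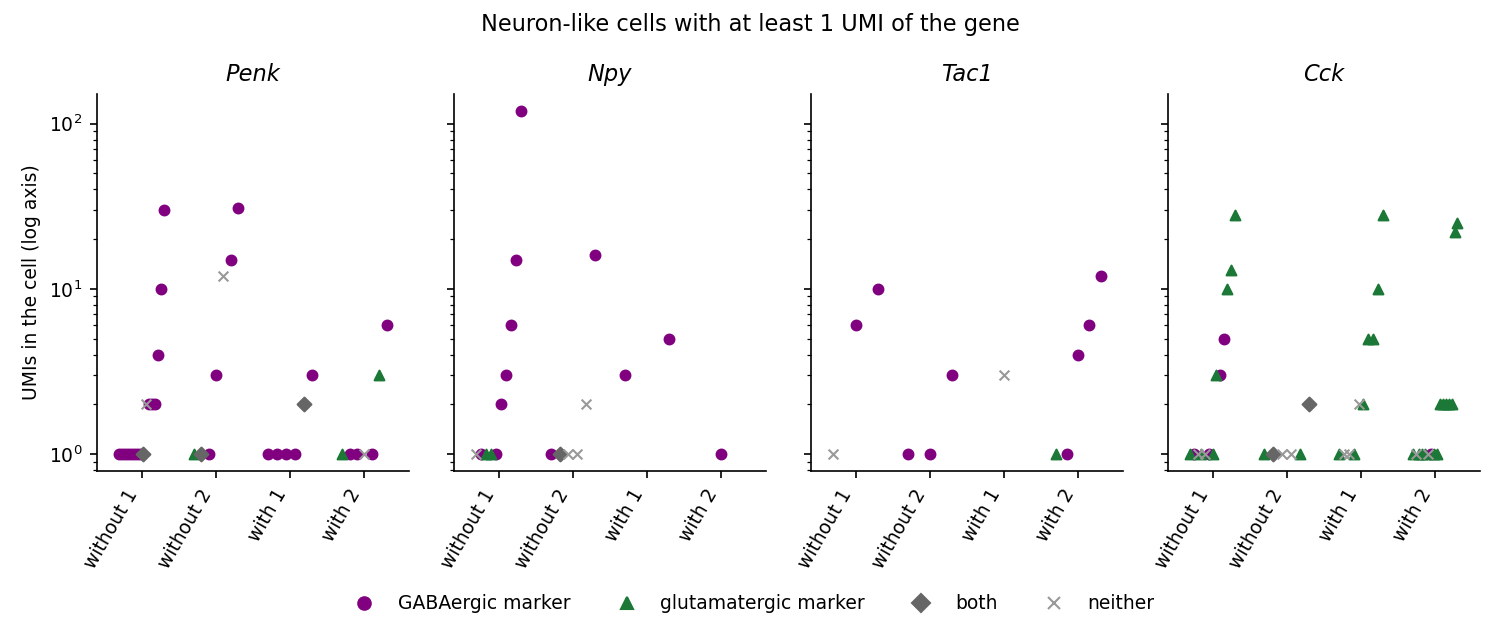
UMIs per cell (log axis) of Penk, Npy, Tac1 and Cck in the neuron-like cells that had at least 1, by animal without or with inhibitors, with the symbol giving the GABAergic or glutamatergic markers found in the same cell. The highest Penk, Npy and Tac1 cells carry GABAergic markers, the highest Cck cells glutamatergic ones, and 1 Npy cell reaches 120.

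Granins gave no common direction in neuron-like cells. Chga (chromosome 12, 102554969 to 102565028, plus strand), encoding chromogranin A, stood at 409 and 55.8 CPM without inhibitors and 87.7 and 76.3 with them. Chgb (chromosome 2, 132781278 to 132795079, plus strand), encoding chromogranin B, was at 706 and 307 CPM against 386 and 444. Scg2 (chromosome 1, 79434669 to 79440120, minus strand), encoding secretogranin II, was at 512 and 167 CPM against 535 and 194. For each of the 3 the groups overlapped, with log2 fold changes of 1.62, 0.32 and -0.02. Scg2 was higher in the libraries numbered 1 of both groups than in those numbered 2, whereas Chga and Chgb were highest in the first animal without inhibitors.

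A single cell accounted for much of that first animal. It had 12807 UMIs, among them 64 of Chga, 82 of Chgb, 41 of Scg2 and 52 of Pcsk1n, and it was the highest neuron-like cell for all 4 genes. It had no UMI of a GABAergic or glutamatergic marker. By share of all UMIs in neuron-like cells, its leading other gene was Cga, which encodes the shared alpha subunit of the pituitary glycoprotein hormones, with 344 UMIs against 0 in all other neuron-like cells. It also had 247 UMIs of Nnat, 94 of Gnas, 75 of Ly6h and 28 of Fos. This cell was named neuron-like with its cluster, and with it left out the animal stood at 87.6 CPM for Chga, 307 for Chgb, 323 for Scg2 and 948 for Pcsk1n. Its Chga level then lay within the range of the other 3 animals.

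Of the granins, Chgb was found in 99 neuron-like cells, with at most 10 UMIs in any cell other than the Cga-positive one, and after thinning in 13.3% to 21.1% of the neuron-like cells of each animal. Scg2 was found in 59 cells and Chga in 29, the latter fewer than the 45 of Cck and the 36 of Penk. Outside neurons, Chga reached 35.9 ± 13.7 CPM (SD, n = 4) in neural progenitor-like cells, from 8 UMIs, below the 84.2 that a count of 0 allows in the smallest of these samples. Mean levels of Chgb and Scg2 stayed at or below 23.6 CPM in every other named class.

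Pcsk2 (chromosome 2, 143546156 to 143816285, plus strand), prohormone convertase 2, stood at 328 and 270 CPM in neuron-like cells without inhibitors and 421 and 458 with them. The groups did not overlap, with the lower values in the animals without inhibitors, and the log2 fold change was -0.55. It was spread over 101 cells with at most 16 UMIs in 1 cell, and it was in 79.3% of neurons with Chga against 27.0% of those without, although neurons with Chga were also deeper, at a median of 2813 against 889 UMIs. Among the 9 genes that passed the filter in neuron-like cells, the groups thus did not overlap for Penk and Npy, with higher values without inhibitors, nor for Cck and Pcsk2, with lower ones. Over all genes tested in these cells, 13.9% did not overlap with higher and 14.2% with lower values without inhibitors.

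In choroid plexus-like cells, the epithelium that makes cerebrospinal fluid, Pcsk2 went the other way. It was at 47.3 and 24.5 CPM without inhibitors and 5.0 and 13.2 with them, from 31, 19, 2 and 3 UMIs. The groups did not overlap and the log2 fold change was 2.26; this difference led to the choice of Pcsk2 and is given with no test. Among all genes tested in choroid plexus-like cells, 5.12% were called and the groups did not overlap for 50.4%. Median UMIs per choroid plexus-like cell moved the same way, at 2725 and 2378 without inhibitors and 1923.5 and 1340.5 with them. A deep cluster of 34 cells, with a median of 12722 UMIs, held 26 of the 55 Pcsk2 UMIs and counted 11 and 16 cells without inhibitors and 4 and 3 with them. In the other choroid plexus-like cluster Pcsk2 stood at 38.6 and 10.9 CPM against 5.5 and 5.1. Neuron markers in choroid plexus-like cells summed to 183 and 109 CPM against 108 and 119, with 1 of 17 at 0 over all animals, and their part in the result was not tested.

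Ependymal-like cells were the next class for Pcsk2, with 110 and 48.9 CPM without inhibitors and 92.6 and 59.4 with them, in 36 of 186 cells. The groups overlapped, with a log2 fold change of -0.09 ± 0.41 (SE, n = 2 per group) and an adjusted p of 0.998 in edgeR. Oligodendrocyte precursor-like cells gave 48.2 ± 24.5 CPM (SD, n = 4) from 9 UMIs. Their range overlapped with that of ependymal-like cells.

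Pcsk1n (chromosome X, 7919822 to 7924410, plus strand) had the lowest share of UMIs in neuron-like cells after Npy and Sst, the latter with 5 UMIs there. Such shares also depend on the size of each class. Oligodendrocyte-like cells held 38.5% of the Pcsk1n UMIs, astrocyte-like cells 19.0% and neuron-like cells 12.2%. By mean level the order was neuron-like at 866 ± 222 CPM, oligodendrocyte precursor-like at 719 ± 129 and oligodendrocyte-like at 599 ± 62.2 (SD, n = 4 each), and the ranges of neighbours in this order overlapped. Olfactory ensheathing-like cells stood at 418 ± 145 CPM (SD, n = 2). Ependymal-like and astrocyte-like cells came next at 269 ± 44.5 and 264 ± 20.6 CPM, below all oligodendrocyte-like values and not separable from each other.

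Oligodendrocyte-like cells gave 570 and 690 CPM of Pcsk1n without inhibitors and 582 and 552 with them, in 682 of 888 cells. Neuron markers in these cells summed to between 133 and 173 CPM over the 4 animals, against at least 21209 in neuron-like cells. After thinning to 500 UMIs, 22.1% to 33.3% of oligodendrocyte-like cells of each animal had Pcsk1n, against 20.3% to 31.6% of neuron-like cells. In endothelial-like cells, which should lack it, the mean was 3.04% after thinning. The unthinned share was 76.8% at a median of 2781.5 UMIs in oligodendrocyte-like cells and 10.2% at a median of 1769 in endothelial-like cells. The oligodendrocyte-like clusters differed, with Pcsk1n at 627 to 762 CPM in the largest, of 718 cells. A cluster of 143 cells, with Klk6 as leading gene, had 230 to 390 CPM, below the lowest neuron-like value of 667. The remaining cluster, of 27 cells, gave 320 to 1104 CPM from 18 UMIs.

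**Figure D5:**
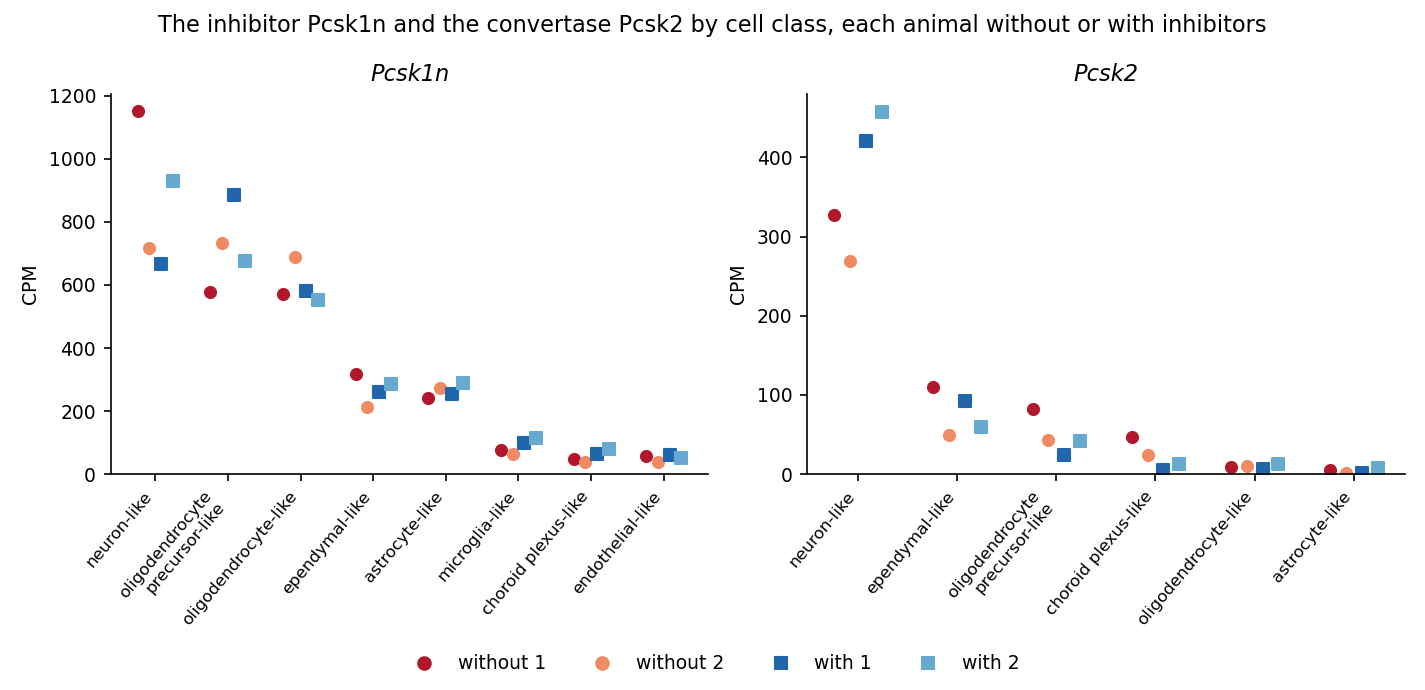
Levels (CPM) of Pcsk1n and Pcsk2 by class, with 1 point per animal, circles for animals without and squares for animals with inhibitors. Pcsk1n overlaps between neuron-like and both oligodendrocyte classes, whereas the lowest neuron-like value of Pcsk2, 270, lies above the highest value of every other class, 110.

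Outside neuron-like and choroid plexus-like cells, 7 classes were tested for the inhibitors. The members passed the filter on low counts in 9 tests (Npy and Pcsk1n in astrocyte-like and microglia-like cells, Npy, Pcsk1n and Pcsk2 in ependymal-like cells, and Pcsk1n in endothelial-like and oligodendrocyte-like cells), and in none in macrophage/monocyte-like and mural-like cells. In edgeR 0 of the 9 were called at an adjusted p under 0.05 with an absolute log2 fold change over 0.58, with 3 at an unadjusted p under 0.05. DESeq2 also called 0, with 1 at an unadjusted p under 0.05. Of all genes tested in these 7 classes, 6.21% were at an unadjusted p under 0.05 in edgeR and 0.853% in DESeq2. The share of all tested genes called was 0.0617% in astrocyte-like, 0.0361% in endothelial-like, 0% in ependymal-like, 0.866% in macrophage/monocyte-like, 0.465% in microglia-like, 0.0461% in mural-like and 0.215% in oligodendrocyte-like cells.

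Closest to a call was Pcsk1n in microglia-like cells, at 76.9 and 65.2 CPM without inhibitors and 99.6 and 115 with them. The log2 fold change was -0.58 ± 0.16 (SE, n = 2 per group) and the adjusted p in edgeR 0.0721; it was 0.0462 without the first animal with inhibitors and 0.0420 without TMM scaling. The groups did not overlap, as for 34.4% of the genes tested in microglia-like cells. Its share of cells, 11.5%, was close to the 10.2% of endothelial-like and the 10.8% of erythrocyte-like cells, at median depths of 1391, 1769 and 5556.5 UMIs. By level, its lowest microglia-like value, 65.2 CPM, lay above the highest endothelial-like and erythrocyte-like values, 59.6 and 37.5. Erythrocyte markers took 507367 CPM of erythrocyte-like cells, which lowers the CPM of every other gene there. The microglia-like range overlapped with those of macrophage/monocyte-like and choroid plexus-like cells, whose highest values were 88.2 and 79.4 CPM. Neuron markers in microglia-like cells summed to 177 and 149 CPM against 169 and 181. In the remaining tests of Pcsk1n the log2 fold change was between -0.23 in endothelial-like and 0.12 in oligodendrocyte-like cells.

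The wider pathway gave no call. Of 67 other genes (peptide precursors, granule and processing genes, and receptors), those that passed the filter on low counts gave 60 tests over the 9 classes, and edgeR called 0, with 13 at an unadjusted p under 0.05, while DESeq2 called 0 with 2 at an unadjusted p under 0.05. Of all genes tested in the 9 classes, 7.34% were at an unadjusted p under 0.05 in edgeR and 1.46% in DESeq2. The share of all genes called in neuron-like cells was 0.0318% and in choroid plexus-like cells 5.12%. In neuron-like cells 10 of the 67 were tested and their median log2 fold change was -0.03, against 0.02 over all genes tested there. Cpe, carboxypeptidase E, which trims cut peptides, was at 747 and 809 CPM without inhibitors and 947 and 742 with them. The vesicle membrane protein gene Ptprn gave 502 and 521 against 702 and 409, and Cadps, which primes dense-core vesicles for release, 261 and 353 against 272 and 173. Pam, the enzyme that amidates peptides, was at 266 and 223 against 211 and 333, and the vesicle synaptotagmin Syt4 at 261 and 158 against 281 and 312. All of these ranges overlapped between the groups except that of Syt4, whose log2 fold change was -0.47.

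Over the 36 class-by-animal sums of the 9 tested classes, the genes with the level most like Penk were Gad2, Slc32a1 and Tro, with Pearson's r of log2(CPM + 10) of 0.98, 0.97 and 0.97. The most similar gene was Gpr158 for Tac1 (0.95), Slc7a14 for Cck (0.95), Kcnj4 for Chga (0.96), Celsr3 for Chgb (0.97), Rgs17 for Scg2 (0.97), Soga3 for Pcsk1n (0.95), Pnmal2 for Pcsk2 (0.94) and Grip1 for Npy (0.86). Vgf, which encodes another granin-like precursor, was among the 3 most similar genes of both Chga and Chgb. The 36 points share 4 libraries and the neuron-like class sets most of the likeness, so these values are a description. For Sst, which had few UMIs, the most similar gene was Zscan20, at only 0.73.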

How the data were processed

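The authors deposited raw counts of UMIs per gene and cell barcode, 1 matrix per animal. Per the labels' processing notes they were made with Cell Ranger 3.0.0, and the build was mm10. Barcodes with fewer than 400 genes or over 20% mitochondrial UMIs were removed (10067 of 12487 left), then 256 doublets scored against simulated ones, which left 9811 cells with 20565338 UMIs. Counts were scaled to 10000 per cell, and cells were clustered by the Leiden method (leidenalg 0.10.2, resolution 1) on 2000 variable genes, reduced to 30 principal components with 15 neighbours per cell, leaving out the 10 genes, the pathway genes and known activation genes. A cluster was named from markers of 16 cell types, of which at least 3 had to pass (log2 fold over the rest of 1 or more, detected in 10% of its cells). Clusters whose 10 leading genes held more markers of another type stayed unnamed (150 cells and 71 cells in 2 clusters). A class name rests on markers alone.

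UMIs were summed per class and animal and given as CPM. Classes with at least 20 cells in every animal were tested in edgeR 4.0.16 (R 4.3.3; filterByExpr, TMM, robust quasi-likelihood test, Benjamini-Hochberg adjustment over all genes of the class), with DESeq2 1.42.0 as an alternative; calls needed an adjusted p below 0.05 and a log2 fold change beyond 0.58 in size. On counts simulated from the means of neuron-like cells (3140 genes) the edgeR step recovered 25% of 2-fold and 94% of 4-fold changes, with 4 false calls. The simulation gave every gene the same fixed spread between animals. Recovery for genes whose animals differed more, such as Npy and Cck, was not measured. With 2 animals per group, edgeR p-values set the difference between the groups against the spread within them, estimated with information shared over genes. They cover these 4 animals alone. Shares were compared after thinning cells to 500 UMIs, and the limit of a count of 0 was 3 counts; such limits cover counting error only.

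The members, the gene lists and the marker lists were chosen with earlier results of these data known. Named genes were the 10 members, pathway genes called in a class or otherwise the 5 with the highest mean CPM in neuron-like cells, and the 3 genes most like each member. Cga and the other leading genes of the Cga-positive cell, the leading genes of clusters, and the calls named under alternatives were chosen after their values were seen. Alternatives were no TMM, DESeq2, no filter on low counts, the replicate number as a block, each animal left out, a mitochondrial limit of 10%, doublets kept, the members kept in the clustering and thinning to 1000 UMIs; the crossed block and the cell subsets were added after seeing the data. Same-numbered samples of the 2 groups deviated together with a correlation of 0.100 over all cells and -0.154 in neuron-like cells, and the labels tie no pairs, so the main design had no block.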

Additional observations from a re-analysis of the deposited data

Results flagged for a closer look

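The inhibitor contrast of Npy had opposite signs in 2 classes. In neuron-like cells its log2 fold change (without over with inhibitors) was 3.80, with both animals without inhibitors above both with them, and in astrocyte-like cells it was -1.19, with both below. The difference between the classes was not tested. The neuron-like values rest on 19 cells, 1 of which held 120 UMIs, and the astrocyte-like ones on 52 UMIs in all. Without the 3 highest cells of each animal the astrocyte-like groups overlapped, and 1 astrocyte-like cluster, of 740 cells, had the reverse order.

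Pcsk2 also went in opposite directions. Its log2 fold change was 2.26 in choroid plexus-like cells and -0.55 in neuron-like cells, and in neither class did the groups overlap. This difference was not tested either. The choroid plexus-like values rest on 55 UMIs, of which 5 came from the animals with inhibitors.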

How the results depend on the processing

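The 9 tests of the members outside neuron-like and choroid plexus-like cells gave 0 calls in the main design and 1 call without TMM (Pcsk1n in microglia-like cells); with each animal left out the count was between 0 and 1. Pathway genes gave 0 calls, 1 with the mitochondrial limit of 10% (Scg5 in choroid plexus-like cells, log2 fold change 1.88) and between 0 and 1 with each animal left out (Cpe in endothelial-like cells without the first animal without inhibitors, Gnrh1 in astrocyte-like cells without the first animal with inhibitors). In such fits the lone animal of a group is assumed to vary like the others. The log2 fold change of Penk in neuron-like cells was 0.69 without cells that had an indirect-pathway marker, and 1.84 to 2.70 with each animal left out. That of Pcsk2 in choroid plexus-like cells was 1.56 to 2.92 with animals left out, lowest without the first animal with inhibitors and highest without the second. All 10 members had their highest mean among the 9 tested classes in neuron-like cells, 9 to 10 with an animal left out. By thinned shares the number was 8 at either depth. The tested classes leave out fibroblast-like, olfactory ensheathing-like and oligodendrocyte precursor-like cells, among others. Sst had 5 UMIs in neuron-like cells, at a mean of 10.2 CPM against 8.54 in macrophage/monocyte-like cells, so its rank was not resolved. In oligodendrocyte precursor-like cells the mean of Sst was higher, at 16.1 CPM from 3 UMIs. With each animal left out, the log2 fold change ran from -0.16 to 2.03 for Npy in microglia-like cells and, in neuron-like cells, from -0.29 to 0.056 for Cpe, -0.46 to 0.31 for Ptprn and -0.44 to 0.23 for Pam, so that single animals turned these signs.

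With the replicate number as a block the log2 fold change was 2.31 for Penk and 2.44 for Pcsk2, and 0 members and 0 pathway genes were called. The labels do not say that the numbers pair the animals. Over all genes the block moved the calls from 8 to 45 for all cells and from 237 to 303 in choroid plexus-like cells, and crossed pairs gave 8 and 135.

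No value could be fitted for Penk without its 3 highest cells per animal, nor for Pcsk2 without the deep choroid plexus-like cluster, with the 10% mitochondrial limit or without the first animal without inhibitors, nor for Npy in astrocyte-like cells with that limit, since the gene no longer passed the filter on low counts. Depth limited the members to between 5 and 512 UMIs in neuron-like cells.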
